A study of Mus musculus with 8 samples.

Results

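The genes of titin, nebulin and the proteins that bind the myosin filament were examined in muscle stem cells (MuSCs) from aged mice after 72 hours in culture with nicotinamide (NAM) combined with pyridoxine (PN). The members were chosen by name, as components of these filaments, and are 9 of the 55487 genes counted, namely titin (Ttn), nebulin (Neb), nebulette (Nebl), the myomesins Myom1, Myom2 and Myom3, the slow and fast myosin-binding proteins C (Mybpc1 and Mybpc2) and myosin-binding protein H (Mybph). MuSCs were sorted from the hindlimbs of male wild-type C57BL/6JRj mice, labelled old. The study's methods give 23 to 25 months for its aged mice in general. Cells of 8 mice were combined into 4 pools of 2, and each pool was cultured in growth medium both with NAM/PN at 1 mM and with 1% DMSO as vehicle, which gave 4 NAM/PN and 4 vehicle libraries. No genetic change was carried by either group, and each pool number stands for the same mice in both conditions. A library is therefore a mixture of 2 animals after culture, and the tests measure the spread between such pools.

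Titin is a single giant protein that runs from the Z-disc to the M-band of a sarcomere (the contractile unit of muscle), acts as a molecular spring and aligns the myosin filament. Nebulin lies along the actin filament and helps to set its length, while nebulette is its shorter relative, best known from cardiac muscle, whose locus also encodes the LIM-domain protein LIM-nebulette. The myomesins cross-link myosin filaments and titin at the M-band, and myosin-binding proteins C sit on the myosin filament at regular intervals and modulate the crossbridges. Myosin-binding protein H is a smaller relative of this family. These genes are switched on when myoblasts leave the cell cycle and differentiate, under myogenic factors such as myogenin (Myog) and the MEF2 proteins.

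Libraries were made from the 3′ ends of transcripts, so a count should depend little on the length of a gene. The longest annotated transcript of titin has 347 exons, and the positions of its reads were not examined. Levels are given as CPM (counts scaled to a common library size with TMM factors, which assume that most genes do not differ) and are compared between libraries, not between genes. Library totals ranged from 6472484 to 10163101 counts, so that 3 counts, taken as the floor of detection, stood for 0.280 to 0.457 CPM. Vehicle replicate 3 had 18.7% of its counts on a ribosomal RNA gene, against 5.22% to 11.6% in the other libraries, and member values without it are given where a call rests on it. The label of muscle stem cells was checked with 10 satellite cell and myoblast markers (among them Pax7, Myf5, Myod1 and Des). All 10 passed the filter on low counts, and their summed level was between 4323 and 5075 CPM in vehicle and between 3863 and 4439 CPM with NAM/PN. Chrna1, Myod1 and Des were the highest in vehicle (means of 1532, 1366 and 813 CPM), with Pax7 at 196 and Myf5 at 41.4 CPM. The sum therefore does not separate stem cells from differentiating myoblasts.

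Across the 9 members, 7 had enough counts to be tested and every one of the 7 had a lower fitted level with NAM/PN. A lower fitted level was found in 50.2% of all tested genes. Neb, Mybpc1 and Myom2 fell in the comparison of the 4 NAM/PN with the 4 vehicle libraries by edgeR's quasi-likelihood test, with p-values adjusted over all 12060 tested genes. Of all tested genes, 0.995% were called lower in this comparison. When the pool was entered as a block, so that each NAM/PN culture was set against the vehicle culture of the same mice, Ttn, Neb, Mybpc1 and Mybph fell, and 1.02% of all tested genes were called lower. Myom1 and Myom3 passed neither test. When voom estimated the correlation within pools, Neb and Mybpc1 were the only members called, among 166 genes called lower. None of the 7 tested members rose, and Nebl and Mybpc2 were not tested. The median log2 fold change of the 7 tested members was -2.41, also with Myom2 set to its bound, and that of all tested genes was -0.0022. Myom2 passed the filter on low counts through its vehicle libraries alone, so that its inclusion already required a difference. In bulk RNA, fewer differentiating cells and less RNA per cell cannot be told apart.

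**Figure D1:**
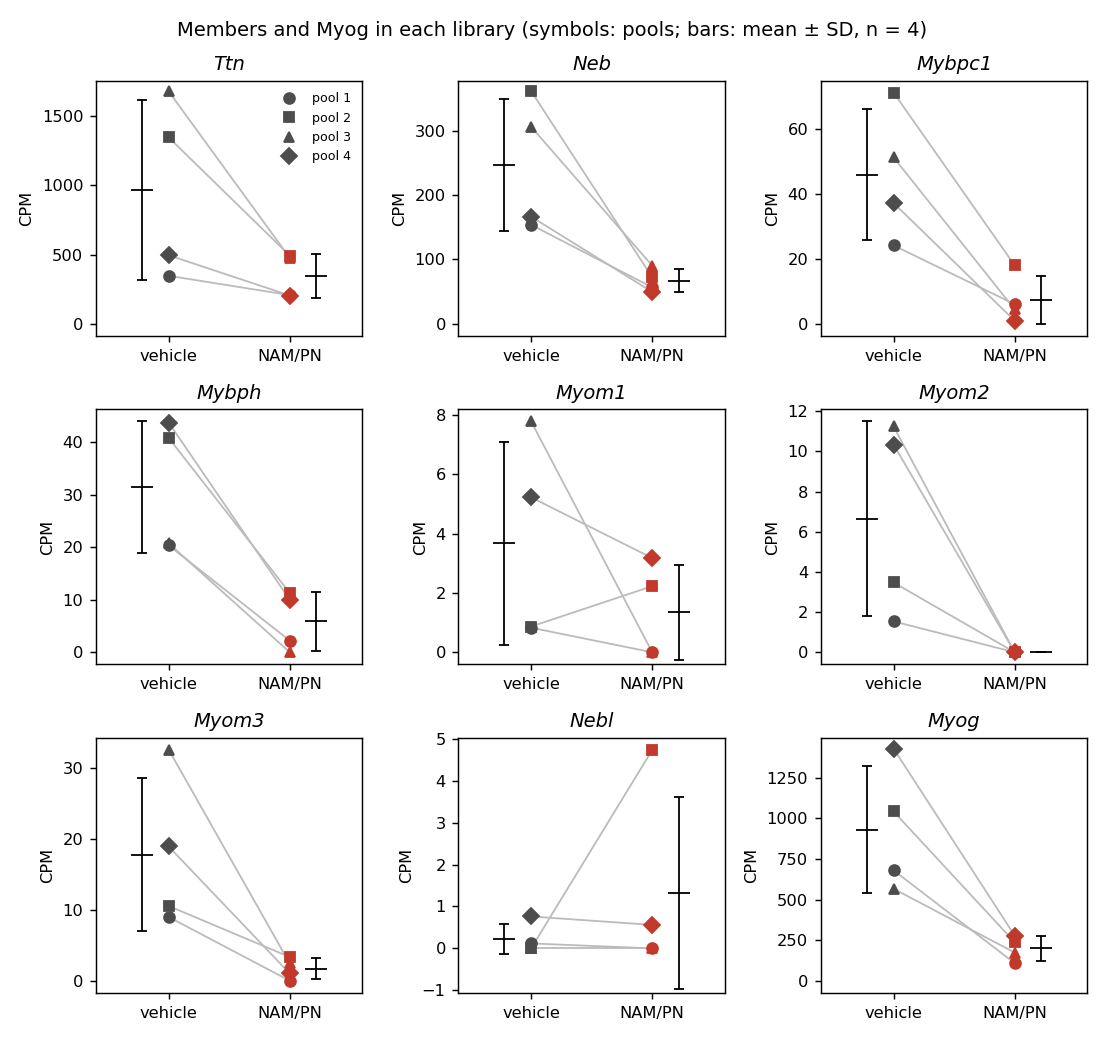
Normalized CPM (linear axis) of 8 members and of Myog in each vehicle (grey) and NAM/PN (red) library, with pools as symbols joined by lines and the mean ± SD (n = 4) beside them. Ttn, Neb and Mybpc1 were highest in vehicle pools 2 and 3, Myom1, Myom2 and Myom3 in vehicle pools 3 and 4, and Mybph and Myog in vehicle pools 4 and 2, while Myom2 was at 0 in each NAM/PN library; Mybpc2, at 0 counts throughout, is not drawn.

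Ttn (ENSMUSG00000051747, GRCm38 chr2:76703980-76982547, minus strand) was the member with the most counts. In vehicle it measured 347, 1346, 1678 and 495 CPM in pools 1 to 4, and with NAM/PN 207, 492, 476 and 204 CPM. Pools 2 and 3 were high in both conditions, and within each pool the NAM/PN value was the lower one, but the lowest vehicle library lay below the highest NAM/PN libraries. The means were 966 ± 647 CPM in vehicle, against 345 ± 161 CPM with NAM/PN (SD, n = 4), or 35.7% of vehicle. Vehicle libraries alone differed by up to 4.84-fold. Without the block, the log2 fold change was -1.49 (SE 0.39, 95% confidence interval -2.31 to -0.67) with an edgeR adjusted p of 0.0736. With the pool as a block, it was -1.32 (SE 0.19, interval -1.72 to -0.93) with an edgeR adjusted p of 0.00079. Ttn was not called by voom, with the correlation within pools estimated (log2 fold change -0.97, adjusted p = 0.178 with an estimated correlation), by DESeq2 (adjusted p = 0.230) or by the robust edgeR fit (adjusted p = 0.551). DESeq2 and the robust fit were run without the pools. The exact permutation test over the 70 ways to divide 8 libraries into 4 and 4, which ignores the pools, gave p = 0.114, two-sided. Without vehicle replicate 1, the lowest vehicle library, the unblocked value was -1.77 and passed (edgeR adjusted p = 0.0204). Without vehicle replicate 3, the highest, it was -1.09 (edgeR adjusted p = 0.240), and it did not pass in 11 of the 12 unblocked fits that left out a library or a pool. In the blocked fits without a pool, added after seeing the data, Ttn passed each time (highest edgeR adjusted p = 0.00459, without pool 2).

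Neb (ENSMUSG00000026950, chr2:52136647-52378474, minus strand) was also highest in vehicle pools 2 and 3, with less spread. Its vehicle values were 154, 362, 306 and 167 CPM, and its NAM/PN values were 56.6, 72.2, 90.3 and 49.5 CPM. Every NAM/PN library lay below every vehicle library, a pattern found in 4.42% of all tested genes. Among the members it was found in Myom2 (included through its vehicle libraries alone), Myom3, Mybpc1, Mybph and Neb. The Neb mean was 247 ± 103 CPM in vehicle, against 67.2 ± 18.1 CPM with NAM/PN (SD, n = 4). The log2 fold change was -1.88 (SE 0.27, interval -2.45 to -1.32, edgeR adjusted p = 0.000685), and the exact permutation test gave p = 0.0286, two-sided, the smallest this design allows. Neb was the member called in every fit that was run, also without any single library or pool, with a highest adjusted p of 0.0377.

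Nebl (ENSMUSG00000053702, chr2:17343909-17731464, minus strand) was close to absent. It had 1, 0, 0 and 7 counts in the vehicle libraries of pools 1 to 4 and 0, 34, 0 and 6 counts with NAM/PN. These values were too low for the filter and were not tested. The 34 counts of NAM/PN replicate 2 equalled 4.74 CPM, whereas no other library exceeded 0.762 CPM.

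The myomesins were much more sparsely counted than titin. Myom1 (ENSMUSG00000024049, chr17:71002633-71126856, plus strand), which encodes the myomesin found in all striated muscle, had 7, 7, 63 and 48 counts in vehicle pools 1 to 4 and 0, 16, 0 and 34 with NAM/PN. The highest levels were 7.78 CPM in vehicle (pool 3) and 3.18 CPM with NAM/PN (pool 4). The groups overlapped, and the value in pool 2 was higher with NAM/PN than with vehicle. The log2 fold change of -1.43 had an interval from -4.90 to 2.05 (edgeR adjusted p = 0.914; 0.872 with the block), so that neither a fall nor a rise of several fold could be distinguished at this depth. The 5′ end of Myom1 overlaps Myl12a on the opposite strand, whose log2 fold change was 0.07 (adjusted p = 0.969), and the strand setting of the counting is not given in the sources used here.

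Myom2 (ENSMUSG00000031461, chr8:15057653-15133541, plus strand), which encodes M-protein of fast fibres, was counted in vehicle cultures and in none of the NAM/PN cultures. Vehicle libraries held 13, 28, 91 and 95 counts, or 1.54, 3.47, 11.2 and 10.3 CPM, and each NAM/PN library held 0 counts. Against a floor of 3 counts per library (0.381 CPM on average over the NAM/PN libraries), the vehicle mean of 6.65 ± 4.86 CPM (SD, n = 4) made Myom2 at least 17.4-fold lower with NAM/PN. The edgeR adjusted p was 0.0422 without the block and 0.155 with it. The call was lost when any single library was left out (adjusted p between 0.0598 and 0.210 by edgeR). The exact permutation test gave p = 0.0286, two-sided. Myom2 passed the filter on low counts through its vehicle libraries alone. Its inclusion already required a difference, so these p-values are no independent support.

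Myom3 (ENSMUSG00000037139, chr4:135759715-135815564, plus strand), the myomesin of slow and intermediate fibres, gave 9.0, 10.5, 32.6 and 18.9 CPM in vehicle and 0, 3.34, 2.44 and 1.03 CPM with NAM/PN. The groups did not overlap. The mean was 17.8 ± 10.8 CPM in vehicle, against 1.70 ± 1.48 CPM with NAM/PN (SD, n = 4), a log2 fold change of -3.39 (SE 0.89, interval -5.24 to -1.54). It did not pass by edgeR's quasi-likelihood test (adjusted p = 0.0702, and 0.0644 with the block). DESeq2 on the same counts gave an adjusted p of 0.00259. Without vehicle replicate 3, its highest library, the log2 fold change was -2.92 and the edgeR adjusted p 0.307.

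Of the myosin-binding proteins, Mybpc1 (ENSMUSG00000020061, chr10:88518279-88605152, minus strand), the slow skeletal form, measured 24.2, 71.2, 51.3 and 37.2 CPM in vehicle and 6.03, 18.0, 4.42 and 0.934 CPM with NAM/PN. Each NAM/PN culture was below the vehicle culture of its own pool and below every other vehicle culture. The mean was 46.0 ± 20.1 CPM in vehicle, against 7.34 ± 7.40 CPM with NAM/PN (SD, n = 4). The log2 fold change was -2.66 (SE 0.59, interval -3.89 to -1.42, edgeR adjusted p = 0.0253) and was -3.08 with the block (adjusted p = 0.0037). Over the unblocked fits that left out a library or a pool, it ranged from -3.61, without NAM/PN replicate 2, to -2.28. Without the block, the call was lost when vehicle replicate 2, 3 or 4 or NAM/PN replicate 1 or 3 was left out (adjusted p = 0.164, 0.0558, 0.0718, 0.102 and 0.0904), and in the robust edgeR fit with all libraries (adjusted p = 0.0693). With the block it passed without any single pool, with an adjusted p of 0.0138 when pool 3 was left out.

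Mybpc2 (ENSMUSG00000038670, chr7:44501699-44524656, minus strand), the fast skeletal form, had 0 counts in all 8 libraries, which allows a level of up to 0.0452 CPM over the libraries together. Floors cover counting error only.

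Mybph (ENSMUSG00000042451, chr1:134193448-134201232, plus strand) measured 20.4, 40.8, 20.7 and 43.7 CPM in vehicle and 2.22, 11.3, 0 and 9.99 CPM with NAM/PN. Pools 2 and 4 were the higher ones in both conditions, and the groups did not overlap. The mean was 31.4 ± 12.6 CPM in vehicle, against 5.87 ± 5.60 CPM with NAM/PN (SD, n = 4). Without the block, the log2 fold change was -2.41 (SE 0.74, interval -3.95 to -0.87) and did not pass (edgeR adjusted p = 0.153). With the block it was -3.08 and passed (edgeR adjusted p = 0.0332), also when pool 3, with the 0 value, was left out (0.0141), but not when pool 4 was left out (0.0890). It was not called by voom (adjusted p = 0.0987 with an estimated correlation within pools) or by DESeq2 without the block (adjusted p = 0.428). The exact permutation test gave p = 0.0286, two-sided. Adora1, the adenosine A1 receptor gene, overlaps Mybph on the opposite strand, at the 3′ ends of both genes. It had 147 counts in all libraries, with a log2 fold change of -1.75 (edgeR adjusted p = 0.888), the same direction as Mybph. Reads of this kind fall at 3′ ends, and the strand setting is not given, so how reads in the overlap were assigned is not known.

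**Figure D2:**
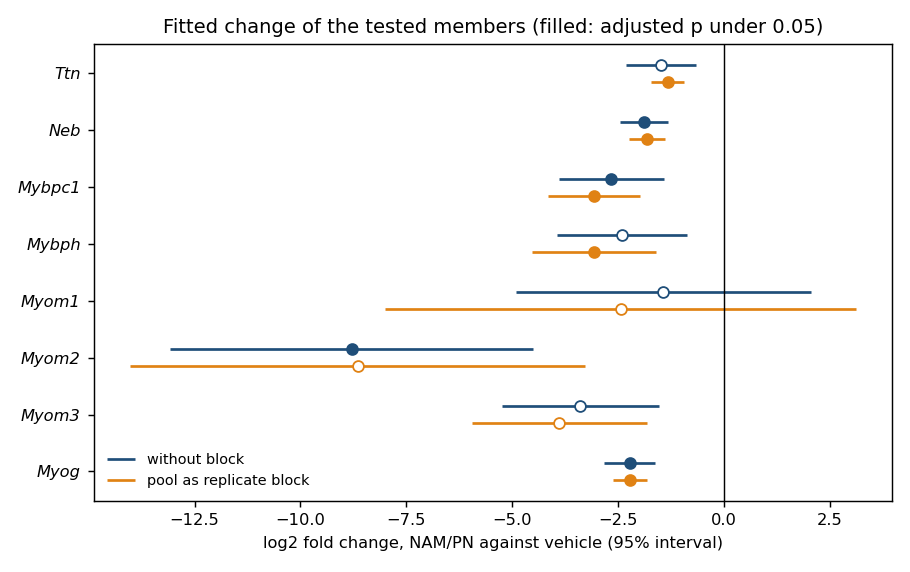
Log2 fold change of each tested member (NAM/PN against vehicle) with its 95% confidence interval, fitted without and with the pool as a block, where filled symbols have an adjusted p under 0.05. Every point lies below 0; the block narrows the interval of Ttn to -1.72 to -0.93, the interval of Myom1 spans 0, and the fitted position of Myom2, at 0 counts with NAM/PN, depends on the prior count and is no estimate of size.

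The start regions of the members are shown because the members with lower values in all pools can be compared by the motifs near their starts. Lower values in all pools were found in 10.6% of all tested genes. RefSeq promoter windows on GRCm38.p6 were found for 7 of the 9 members, not for Neb and Myom2. The 250 bases before the start of Ttn (chr2:76982548-76982797, minus strand), Myom3 (chr4:135759465-135759714, plus strand), Mybpc1 (chr10:88605153-88605402, minus strand) and Mybph (chr1:134193198-134193447, plus strand) read, 5′ to 3′, as follows, with capitals marking E-boxes (CANNTG, the motif bound by myogenic bHLH factors such as MYOD and myogenin), MEF2 sites and TATAAA on either strand.
Ttn: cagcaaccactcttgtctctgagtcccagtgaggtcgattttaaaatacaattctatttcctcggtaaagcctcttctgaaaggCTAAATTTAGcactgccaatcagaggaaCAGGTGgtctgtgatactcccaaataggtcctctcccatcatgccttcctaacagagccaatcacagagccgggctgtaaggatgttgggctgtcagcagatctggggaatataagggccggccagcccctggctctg
Myom3: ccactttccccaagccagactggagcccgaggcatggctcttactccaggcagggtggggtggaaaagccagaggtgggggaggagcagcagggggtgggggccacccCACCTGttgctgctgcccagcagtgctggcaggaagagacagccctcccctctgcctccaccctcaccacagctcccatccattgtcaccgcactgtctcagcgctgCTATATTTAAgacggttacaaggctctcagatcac
Mybpc1: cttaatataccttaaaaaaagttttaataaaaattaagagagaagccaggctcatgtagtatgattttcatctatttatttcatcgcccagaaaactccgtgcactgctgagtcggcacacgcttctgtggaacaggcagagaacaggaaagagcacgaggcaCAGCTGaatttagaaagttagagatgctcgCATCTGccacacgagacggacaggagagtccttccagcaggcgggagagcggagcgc
Mybph: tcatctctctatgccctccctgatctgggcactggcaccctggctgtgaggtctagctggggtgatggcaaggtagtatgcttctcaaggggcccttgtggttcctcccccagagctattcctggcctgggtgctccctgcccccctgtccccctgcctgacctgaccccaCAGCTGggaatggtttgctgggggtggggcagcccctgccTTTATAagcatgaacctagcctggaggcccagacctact
Each of the 4 windows held an E-box, as did 66.2% of all 32851 promoter windows of this length. Ttn and Myom3 shared an E-box of the CAGGTG type, at 138 and 142 bases before the start, which 17.2% of all windows held, and both had a MEF2 site, at 166 and 35 bases, found in 2.92% of all windows. Mybpc1 and Mybph had an E-box of the CAGCTG type instead, at 87 and 79 bases, found in 13% of all windows, and no MEF2 site in the window. Mybph also had TATAAA (12.4% of all windows), at 39 bases, and CATTCC, the MCAT motif (12.6%), at 73 bases. Motifs were searched on both strands, and CAGGTG and CAGCTG are also counted as CANNTG. The same motifs stood in windows of the members without enough counts, since Mybpc2 had CAGGTG at 157 and CATTCC at 62 bases, and 1 each of the Nebl windows had CAGGTG (at 228 bases) and CATTCC (at 230). A match describes the letters only, and no binding was measured.

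The members did not follow one order across the vehicle cultures. Neb and Mybpc1 kept the most constant ratio of all pairs of members, with an SD of 0.229 of their log2 difference over the 4 vehicle libraries, followed by Myom1 and Myom2 (0.535) and by Ttn and Neb (0.542). With NAM/PN, where counts were lower, the SDs of these pairs were 1.46, 2.08 and 0.398, so that the order held for the vehicle libraries only. Mybph ran instead with Myog. Its log2 level minus that of Myog was -5.04, -4.67, -4.75 and -5.02 in vehicle pools 1 to 4 (SD 0.190). The other members had SDs of 0.826 to 1.66 relative to Myog over these libraries, and Mybph is described here because its SD was the smallest of the 7. With NAM/PN the difference was -5.46, -4.36 and -4.76 in pools 1, 2 and 4, and pool 3 had no Mybph counts. Mybph and Myog lie 88756 bases apart on chromosome 1, in the same orientation, with the protein-coding gene Adora1 and the snRNA gene Gm24517 (0 counts) between them. These are descriptions over 4 libraries that share their pools and depth.

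Whether some members were lowered more than others was tested on the 21 pairs of tested members, as the log2 ratio in each library. None of the pairs passed after adjustment over the 21 exact permutation tests (smallest adjusted p = 0.15), while 4 had an unadjusted p of 0.0286, the smallest this design allows. A small number of differing pairs could not have passed this adjustment. Ttn exceeded Myom3 by 5.64 ± 0.97 log2 units in vehicle and by 7.92 ± 1.23 with NAM/PN (SD, n = 4), a difference of 2.28. The other pairs were those of Myom2 with Ttn, Neb and Myom1, in which Myom2 was at 0 counts in each NAM/PN library. Inclusion of Myom2 in these tests already required a difference from vehicle. Whether Myom2 and Myom3 were lowered more than Ttn could not be settled with this number of libraries.

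The members were also set against Myog, the differentiation factor, which measured 680, 1042, 566 and 1428 CPM in vehicle and 108, 237, 173 and 277 CPM with NAM/PN (log2 fold change -2.22, SE 0.29; edgeR adjusted p = 0.000232). None of the 7 tested members differed from Myog after adjustment over the 7 exact permutation tests, but a single differing member could not have gone below an adjusted p of 0.20 in this design, so the absence of a call does not show that they moved alike. Myom2 came nearest, with a difference of -2.25 in the log2 ratio that depends on the prior count (exact permutation test, p = 0.0286, adjusted p = 0.20). Here too, its inclusion already required a difference from vehicle. Relative to Myog, the log2 ratio shifted by 0.89 for Ttn and 0.40 for Neb, and by -1.38, -0.88 and -1.15 for Myom3, Mybpc1 and Mybph (exact permutation tests, adjusted p = 0.667 for each). That of Myom1 shifted by 0.53 (exact permutation test, adjusted p = 0.686). Ttn was at -0.14 ± 1.39 relative to Myog in vehicle and at 0.75 ± 0.83 with NAM/PN (SD, n = 4), a shift smaller than the SD of the vehicle libraries and slightly larger than that of the NAM/PN libraries.

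**Figure D3:**
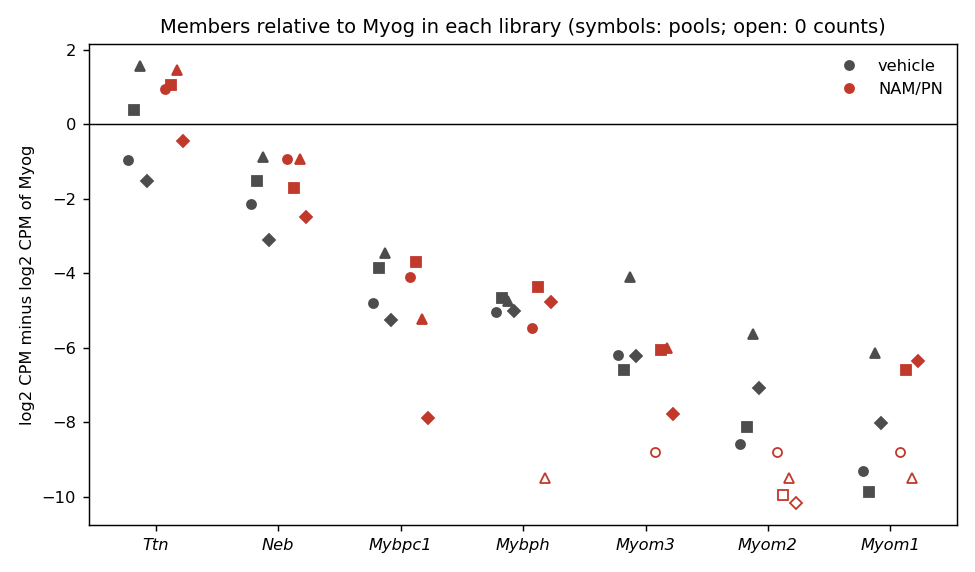
Log2 CPM of each tested member minus log2 CPM of Myog in each vehicle (grey) and NAM/PN (red) library, with pools as symbols and open symbols for libraries with 0 counts, whose height is set by the prior count of 2. Mybph lies within -5.04 to -4.67 in the 4 vehicle libraries, whereas Ttn spreads over several log2 units in vehicle.

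Genes around the members were described by lists. Of 18 further genes of the M-band, of titin's partners and of myosin binding, 11 were tested and 2 fell, with none higher and a median log2 fold change of -0.39. Smyd1, a methyltransferase needed to assemble myosin filaments, measured 98.6 ± 9.0 CPM in vehicle, against 40.8 ± 14.1 CPM with NAM/PN (SD, n = 4), a log2 fold change of -1.27 (edgeR adjusted p = 0.00999). Trim63, the ubiquitin ligase MuRF1 that binds titin at the M-band, measured 6.72 ± 3.20 CPM in vehicle (SD, n = 4) and 0 counts in each NAM/PN library, at least 17.6-fold lower (edgeR adjusted p = 0.0344, and 0.140 with the block). Like Myom2, it passed the filter through its vehicle libraries alone, so that its inclusion already required a difference. Unc45b, a myosin chaperone, had a log2 fold change of -1.96 and did not pass (adjusted p = 0.504). Mybpc3 and Mybphl, the cardiac relatives of the members, had 0 counts in all libraries.

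Along the actin filament, where nebulin lies, 18 of 24 listed genes were tested, 2 fell and none rose, with a median log2 fold change of -1.62. They were Acta1, skeletal α-actin, with 394 ± 91 CPM in vehicle, against 60.5 ± 39.0 CPM with NAM/PN (SD, n = 4), a log2 fold change of -2.70 (edgeR adjusted p = 0.000974), and Klhl41, which stabilizes nebulin (log2 fold change -2.63, edgeR adjusted p = 0.00456). With the block, Lmod3 and Actc1 passed as well. Tpm1, a tropomyosin also made by cells without sarcomeres, had a log2 fold change of -0.53 (adjusted p = 0.0561). Among sarcomeric myosins, 5 of the 6 tested of 12 listed fell, with a median of -2.59, among them embryonic myosin Myh3 (-2.33, edgeR adjusted p = 0.000232) and the light chains Myl1 (-2.60, adjusted p = 0.000303) and Mylpf (-2.41, adjusted p = 0.000318). Genes of slow fibres (3 of 4 tested lower, 8 listed; Tnnt1, Tnnc1 and Tnni1, troponin subunits) and of fast fibres (4 of 7 tested lower, 10 listed; Mylpf, Tnnc2 and Tnnt3 first) had medians of -1.93 and -2.26. The lists share some genes, Mylpf and Myh1 among them.

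**Figure D4:**
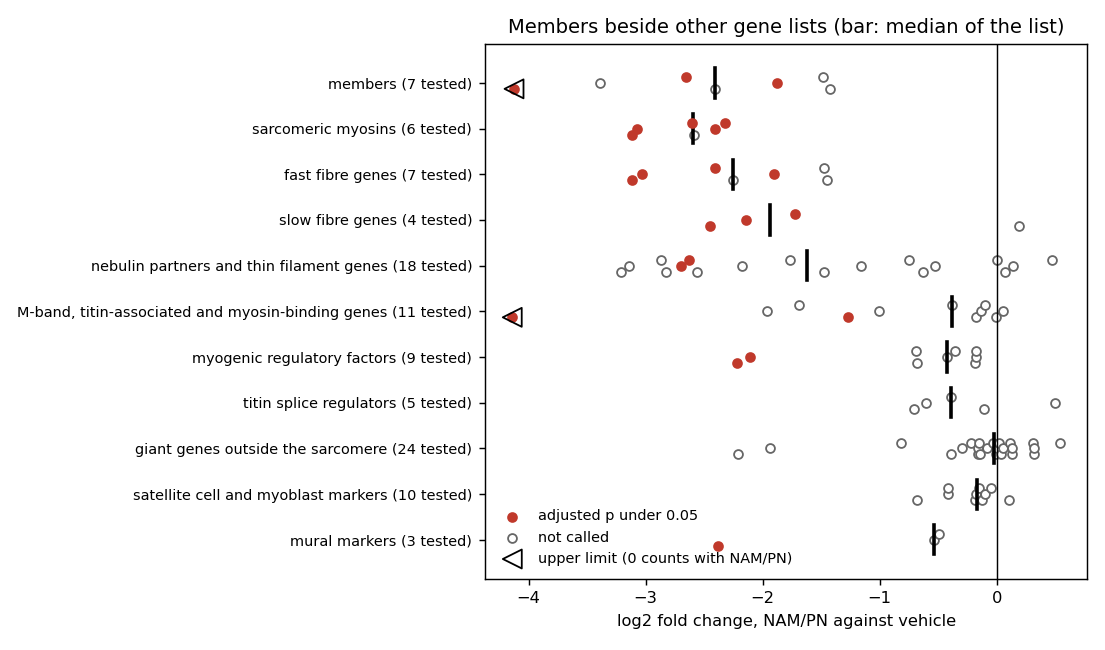
Log2 fold change (NAM/PN against vehicle) of each tested gene of the members and of 10 lists, with filled red points for adjusted p under 0.05 without the block, a vertical bar at each median and an open triangle for genes at 0 counts with NAM/PN (Myom2 and Trim63), drawn at the bound given by 3 counts per library. The medians are -2.41 for the members, -2.59 for sarcomeric myosins and -0.02 for giant genes outside the sarcomere.

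Genes of giant proteins outside the sarcomere were listed for comparison with Ttn and Neb. All 24 listed giant genes outside the sarcomere, such as Macf1, Dst, Huwe1 and Dync1h1, were tested, and 0 were called by edgeR, without or with the block, or by DESeq2 (3 had an unadjusted p under 0.05), with a median log2 fold change of -0.02. The 3 with the smallest p-values were Utrn, encoding utrophin (-0.82, edgeR adjusted p = 0.173), Syne1, encoding a nesprin (-2.21, adjusted p = 0.226) and Mdn1 (0.54, adjusted p = 0.498). Of 5 regulators of titin splicing, 0 passed by edgeR, 1 (Rbm24) passed by DESeq2, and 3 had an unadjusted p under 0.05. Rbm24 measured 414 ± 71 CPM in vehicle, against 254 ± 57 CPM with NAM/PN (SD, n = 4), a log2 fold change of -0.70 (edgeR adjusted p = 0.0757), Qk had a log2 fold change of -0.60 (adjusted p = 0.178) and Ptbp1 of 0.49 (adjusted p = 0.443). Isoforms of titin were not measured by these 3′ counts. Of 11 myogenic factors, 9 were tested, and Myog and Mef2c fell (Mef2c -2.11, edgeR adjusted p = 0.0125), with Mef2a at -0.69 (adjusted p = 0.194) and a median of -0.42. Of the 10 satellite cell and myoblast markers, 0 were called by edgeR or by DESeq2 and 1 had an unadjusted p under 0.05 (Des, encoding the intermediate filament desmin; log2 fold change -0.41, adjusted p = 0.46), with Myf5 at -0.68 (adjusted p = 0.602) and Cdh15 at -0.42 (adjusted p = 0.695).

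Markers of other cells that a sort of muscle could carry over were mostly at or near 0, with Acta2, Notch3, Cspg4 and Scx as the clearest exceptions. Of 8 endothelial markers, 4 were at 0 in all libraries (Emcn, Flt1, Cldn5 and Tie1), and their sum ranged from 3.46 to 19.4 CPM in vehicle and from 9.85 to 29.5 CPM with NAM/PN. Egfl7, the tested one, had a log2 fold change of 1.02 (edgeR adjusted p = 0.687). Of 8 fibro-adipogenic markers, 5 were at 0, Pdgfra among them, none was tested, and their sum ranged from 0 to 4.62 CPM in vehicle and from 0 to 5.85 CPM with NAM/PN. Of 8 immune markers, 6 were at 0, Ptprc among them, and the tested Cd14 and Cd68 had adjusted p-values of 0.782 and 0.976. Their sum ranged from 4.08 to 14.1 CPM in vehicle and from 3.5 to 10.3 CPM with NAM/PN. The mural markers summed to between 285 and 611 CPM in vehicle and between 95.9 and 156 CPM with NAM/PN, mostly through Acta2, smooth muscle α-actin, which differentiating myoblasts also make (log2 fold change -2.38, edgeR adjusted p = 0.000147). Notch3 and Cspg4, the other tested mural markers, measured 37.6 and 27.1 CPM in vehicle and had log2 fold changes of -0.50 (adjusted p = 0.779) and -0.53 (adjusted p = 0.817), and Myh11, the defining smooth muscle myosin, was at 0. The part of Acta2-expressing cells in the lower member values was not tested. Of the tendon markers, Tnmd was at 0, and Mkx and Scx, both tendon transcription factors, did not pass (edgeR adjusted p = 0.47 and 0.567), with Scx at 291 ± 43 CPM in vehicle and 228 ± 31 CPM after NAM/PN (SD, n = 4).

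Outside the members, the genes with the most similar profile were sought among 9207 genes whose mean log2 CPM was 3 or more, by the root mean square difference from the mean centred log2 profile of the tested members over the 8 libraries. They were Neurl1a, a ubiquitin ligase gene (0.371 log2 units), Pygm, muscle glycogen phosphorylase (0.422), C1qtnf3, encoding a secreted C1q-related protein (0.427), Mef2c (0.496) and Cavin2, a caveolar coat gene (0.544). The median over all candidates was 1.59. Their log2 fold changes were -2.70, -2.11, -2.59, -2.11 and -2.53. The measure includes the difference between the groups and is given as a description over 8 libraries that share their pools.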

How the data were processed

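RNA of MuSC cultures was measured in 8 libraries made with a QuantSeq 3′ kit. The authors deposited raw counts per gene, without normalization. According to the study's methods, reads were demultiplexed with Bcl2FastQ, converted with casava, aligned to GRCm38 with RNASTAR and counted with htseq-count, and the submitters' processing notes name HTSeq 2.16.2. The annotation release, the strand setting and the treatment of reads with several matches are not given in the sources used here. Identifiers were named with GENCODE M21, which held 55227 of 55487.

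Genes were filtered with filterByExpr (minimum count 10, minimum total 15), scaled with TMM (trimmed mean of M-values) factors and tested with edgeR's quasi-likelihood test (edgeR 4.0.16, R 4.3.3) between 4 NAM/PN and 4 vehicle libraries, with Benjamini-Hochberg adjustment over 12060 genes and a threshold of 0.05. Of these genes 154 were called, 34 higher and 120 lower with NAM/PN. The same test with the pool as a block was the paired alternative. The pairing comes from the labels, where a pool number marks the same mice in both conditions. The deviations of same-numbered libraries from their group means correlated at r between -0.03 and 0.03 across genes, so the pools left no common trace over all genes. A prior count of 2 was used for log2 CPM values, and single values were tested by exact permutation. Other alternatives were DESeq2 1.42.0, voom with sample weights (limma 3.58.1), a robust fit, no filter, thinning to the smallest total, leaving out ribosomal and mitochondrial genes, a threshold of 0.10, and leaving out each library or pool. Leaving out pools in the blocked fit was added after seeing the data. Scripts were tested on simulated data. No 2 libraries of the same condition agreed within sampling noise (lowest chi-square per degree of freedom 22.8).

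The text names all 9 members, Myog, the 3 tested genes of each list whose p-values were smallest, tested genes overlapping a member, genes lying between Mybph and Myog, and the 5 genes with the most similar profile. Other names (listed genes at 0, examples of giant genes and markers, Lmod3, Actc1 and Myh1) were chosen after their values were seen. The members and lists were chosen with earlier results of these data known. The promoter sequences are from RefSeq. Some genes of the marker lists are not reported here.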

Additional observations from a re-analysis of the deposited data

Results flagged for a closer look

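Nebl stood apart in a single library of each group. In the 4 vehicle libraries it measured 0.762 CPM in replicate 4 and 0 to 0.118 CPM in the others, and with NAM/PN it measured 4.74 CPM in replicate 2 and 0 to 0.560 CPM in the others. In each case the gap to the next library was a larger share of the group's range than Dixon's 95% limit for 4 values. Of 17 groups of values with any count, 2 exceeded the limit. Chance gives 5% for normally distributed values, which counts at or near 0 such as these are not. The 0.762 CPM rested on 7 counts and the 4.74 CPM on 34 counts.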

How the results depend on the processing

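All 7 tested members kept a lower fitted level with NAM/PN in every fit in which they were tested, and none reversed. In the fit without the block, 50.2% of all tested genes had a lower fitted level. Without the block, 154 genes (34 higher, 120 lower) and 3 members were called. DESeq2 called 289 genes (75 higher, 214 lower), no filter on low counts 366 (135 higher, 231 lower) with 6 members, voom with the pool as a block 232 (66 higher, 166 lower) with 2 members (Neb and Mybpc1), and a threshold of 0.10 gave 244 genes and 5 members. With the pool as a block, edgeR called 156 genes and 4 members. Leaving out a library or pool gave 42 to 177 genes and 1 to 5 members. The count of genes was lowest without pool 2, and Neb was the 1 member called without vehicle replicate 2, 3 or 4, NAM/PN replicate 1 or 3, or pool 1, 3 or 4. In the fit with the block, 4, 5, 4 and 3 members were called without pools 1, 2, 3 and 4, where Myom3 was added without pool 2. Fewer samples also lower the power of such fits. The robust fit and thinning each called 2 members (Mybpc1 missed at an adjusted p of 0.0693 in the first, and Myom2 was below the filter in the second). Pairs and comparisons with Myog gave 0 calls in each of 7 alternatives, which says nothing about stability, since the sign-change test within 4 pools cannot go below p = 0.125, exact tests of 4 against 4 not below 0.0286, and those without a pool could not pass at all. At this depth, Myom1, Nebl and Mybpc2 were too sparsely counted for a change to be measured.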
